A study of Mus musculus with 6 samples.

Results

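The TCR beta locus of the mouse lies on chromosome 6 and encodes the beta chain of the T cell receptor (TCR). Its members here were all genes of the 6-library expression table whose symbol starts with Trbv, Trbd, Trbj or Trbc, which gave 41 genes of the 41386 in the table. They comprised 23 variable (Trbv), 2 diversity (Trbd), 14 joining (Trbj) and 2 constant region (Trbc) genes. RNA had been sequenced from thymocytes at the DN4 stage of adult C57BL/6 mice, all of genotype Gata3(g/+), after a sort by GFP. The sort gave 2 groups of 3 libraries, GFP-negative and GFP-positive, with no wild-type group among the samples analysed here, so all the cells compared carried the g allele. The study's title carries the tag GATA3-GFP and concerns GATA3 abundance and allelic exclusion at the TCR beta locus. The labels say neither whether the g allele still makes GATA3 nor whether libraries are from different mice, so the p-values speak only of library-to-library spread, possibly technical.

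In a developing T cell the RAG recombinase first joins a Trbd to a Trbj segment and then a Trbv segment to that DJ unit, and splicing connects the assembled exon to Trbc1 or Trbc2. A productive beta chain pairs with the invariant pre-TCR alpha chain, and the signal of this pre-TCR carries cells through beta selection and stops further Trbv rearrangement on the other allele, which is called allelic exclusion. DN4 cells have passed beta selection and carry neither CD4 nor CD8 at the surface. Trbv segments can also be transcribed unrearranged, and gene-level values separate neither rearranged from unrearranged transcripts nor one allele from the other.

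The segments differ in size, and size bears on what could be measured. The whole diversity and joining segments are shown because they are among the shortest genes in the annotation. Capitals mark, in the joining segments, a codon for Phe or Leu followed by codons for Gly, any residue and Gly, which in most joining segments is the conserved Phe-Gly-X-Gly turn. The match was searched on the sense strand alone, and 11 of the 14 Trbj segments hold it. The segments are given on the plus strand of mm10, from GENCODE M21.
Trbd1: gggacagggggc
Trbd2: gggactgggggggc
Trbj1-1: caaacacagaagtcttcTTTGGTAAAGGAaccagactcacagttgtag
Trbj2-1: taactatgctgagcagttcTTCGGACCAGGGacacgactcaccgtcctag
Trbj2-7: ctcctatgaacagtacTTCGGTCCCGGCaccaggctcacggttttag

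The variable segments are longer, with 289 to 566 bp of exon in GENCODE M21. For the segments on which the results below turn, the last 60 bases of the coding sequence are shown, 5′ to 3′ on the sense strand, with the last in-frame TGT codon in capitals. It encodes the cysteine at which the hypervariable CDR3 loop begins, and recombination joins the DJ unit at or near the end of these bases.
Trbv31: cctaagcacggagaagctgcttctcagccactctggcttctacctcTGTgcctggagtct
Trbv15: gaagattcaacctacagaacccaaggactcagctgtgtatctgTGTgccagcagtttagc
Trbv5: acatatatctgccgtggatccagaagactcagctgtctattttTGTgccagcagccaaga
Trbv19: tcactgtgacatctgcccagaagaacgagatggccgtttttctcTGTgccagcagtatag
Trbv13-2: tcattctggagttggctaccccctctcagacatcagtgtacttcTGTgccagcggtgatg

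These stretches lie in mm10 at chr6:41557693-41557752 for Trbv31, on the minus strand, and on the plus strand at chr6:41141599-41141658 for Trbv15, chr6:41062744-41062803 for Trbv5, chr6:41178989-41179048 for Trbv19 and chr6:41121773-41121832 for Trbv13-2. Sequence and position are from GENCODE M21.

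Expression was deposited as FPKM, which are scaled to transcript length and to the size of the library. Absolute depth is unknown, and steps between the lowest values put the depth of the 6 libraries at 0.860 to 1.28 times that of GFP-negative library 1. This estimate is rough, since only 4.13% to 15.9% of the low genes compared lay at the ratio taken for a library. Gata3 stood at 20.8 to 24.3 FPKM in the GFP-negative libraries against 62.7 to 64.2 FPKM. Summed FPKM of 7 T lineage markers was 2756 to 3264 in GFP-negative and 1946 to 2091 in GFP-positive libraries. B cell markers summed to at most 0.528 FPKM in any library. Other markers moved with the groups. Summed FPKM of 6 double-positive stage genes ran from 1264 to 1917 in GFP-negative and from 206 to 247 in GFP-positive libraries, and all 6 fell, with Cd4 at 190 to 256 and 6.13 to 10.3 FPKM. The Cd4 level of the GFP-negative libraries goes against the DN4 label, as far as RNA can tell. Cd8b1 stood at 427 to 662 FPKM in GFP-negative and at 99.8 to 108 FPKM in GFP-positive libraries, so neither group was free of Cd8 RNA. The 6 gamma-delta T cell genes found in the table summed to 13.3, 13.5 and 36.1 FPKM in libraries 1 to 3 of the GFP-negative group, against 107 to 116 FPKM, and all 6 rose. Most of each sum was Tcrg-C1 and Tcrg-C2, which also count among the gamma locus genes given below. Myeloid genes summed to 2.01 to 2.57 FPKM against 0.156 to 0.280 FPKM. Most of the GFP-negative sum was Itgam, at 1.52 to 2.37 FPKM against 0 to 0.0515 FPKM. Csf1r was also lower in GFP-positive libraries, at 0.224 FPKM or less, while Lyz2 overlapped and Cd14 and Itgax were at or near 0. Genes of the DN3 stage summed to 21.7 to 24.5 against 27.6 to 34.8 FPKM, and 2 of 5 rose. Over all genes tested, 29.8% fell and 24.4% rose (limma, adjusted p under 0.05). NK cell genes summed to 0.277 to 3.396 FPKM against 1.37 to 9.83 FPKM, highest in library 1 of each group. The part of these cells in the differences below was not tested. In RNA from sorted bulk cells, fewer cells of a type and less RNA per cell cannot be told apart.

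Transcripts of the TCR beta locus were lower in GFP-positive cells. Of the 41 genes, 24 had a mean of at least 1 FPKM and were tested, and 19 of these fell and 0 rose (limma on log2(FPKM + 0.5), Benjamini-Hochberg adjusted p under 0.05 over all 11465 genes tested; 0 rose also at an unadjusted p under 0.05). Of all genes tested, 29.8% fell and 24.4% rose by the same rule. The 19 were 17 of 21 tested Trbv segments and both Trbc genes. In the remaining Trbv segments, Trbv5, Trbv12-2, Trbv23 and Trbv30, the log2 fold change was negative as well, without passing. The last tested gene, Trbj2-7, had a log2 fold change of 7.94 that did not pass and came from GFP-positive library 1 alone. The median log2 fold change was -0.70 over the 21 Trbv segments and -0.08 over all genes tested, and in 19 of the 24 tested genes all GFP-positive libraries lay below all GFP-negative ones, against 35.1% of all genes. Quantile normalization shifted the median of all genes to 0.06, and the 19 genes still had negative log2 fold changes.

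**Figure D1:**
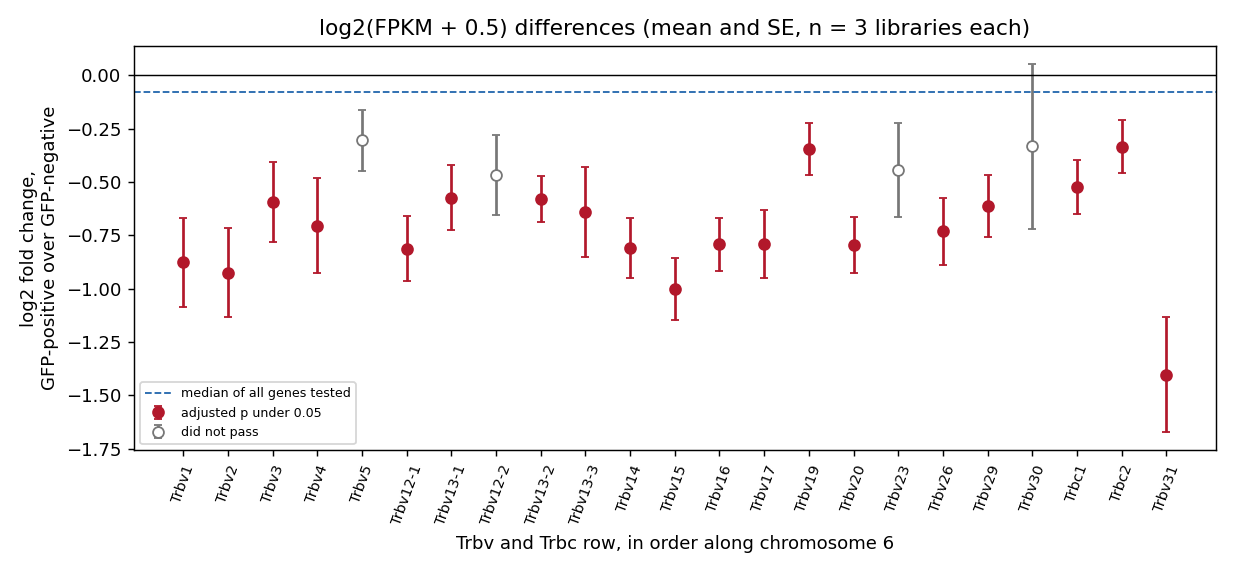
Log2 fold change, GFP-positive over GFP-negative, on the log2(FPKM + 0.5) scale, for the 21 tested Trbv and 2 Trbc genes in their order along chromosome 6; points are estimates and bars standard errors (n = 3 libraries each), filled where the adjusted p was under 0.05, and the dashed line is the median of all genes tested (-0.08). All points lie below that line, from -0.30 for Trbv5 to -1.40 for Trbv31.

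Trbv31 showed the largest decrease of the tested Trbv segments. It is the sole Trbv segment downstream of the constant regions, in inverted orientation, so that it rearranges by inversion, and its product was earlier called V beta 14. It stood at 82.3, 77.0 and 51.1 FPKM in libraries 1 to 3 of the GFP-negative group, against 34.3, 27.9 and 17.6 FPKM in libraries 1 to 3 of the GFP-positive group. Values below are given in the same order. The groups did not overlap, although library 3 was lowest in each. The log2 fold change was -1.40 ± 0.27 (SE; limma, adjusted p = 0.00332), with means of 70.1 ± 16.7 and 26.6 ± 8.42 FPKM (SD, n = 3 each). Its closest relative among the 20 other tested segments, Trbv14, was 56.1% identical over the coding sequence.

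At the other end of the array lie Trbv1, 155 kb upstream of Trbv2, and the group Trbv2 to Trbv5, at -485.9 to -470.9 kb from the start of Trbd1. Trbv1, which encodes V beta 2, stood at 56.2, 93.1 and 63.4 FPKM against 30.5, 45.2 and 38.4 FPKM, a log2 fold change of -0.88 ± 0.21 (limma, adjusted p = 0.00741). Trbv2, V beta 4, stood at 87.5, 84.9 and 71.7 against 55.0, 46.3 and 30.1 FPKM (-0.92 ± 0.21, adjusted p = 0.00562). In neither segment did the groups overlap.

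Trbv3 and Trbv4, the next segments along the chromosome, fell with less certain calls. Trbv3 went from 80.3 ± 12 to 53.9 ± 13.9 FPKM (SD over 3 libraries; log2 fold change -0.59, limma adjusted p = 0.0253) and Trbv4 from 88.1 ± 25.7 to 53.3 ± 11.1 FPKM (-0.70, adjusted p = 0.0272). The call of Trbv3 was lost in 7 of 16 alternative analyses (adjusted p up to 0.0979) and that of Trbv4 in 4 (up to 0.0866), among them leaving out a single library. For Trbv3 these were GFP-negative library 1 or 2 and GFP-positive library 2 or 3, with -0.61, -0.48, -0.54 and -0.44 in that order. For Trbv4 they were GFP-negative library 2 and GFP-positive library 1, with -0.48 and -0.52.

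Trbv5, V beta 1, had the log2 fold change nearest to 0 of the 21, although by the ratio of group means Trbv30 differed less (1.18, GFP-negative over GFP-positive, against 1.24). It stood at 101, 134 and 103 FPKM against 93.1, 96.9 and 81.1 FPKM. The groups did not overlap, but the gap between the lowest GFP-negative and the highest GFP-positive library was small. The log2 fold change of -0.30 ± 0.14 did not pass (limma, adjusted p = 0.0993). Of the 16 alternatives, quantile normalization alone gave a pass (-0.41, adjusted p = 0.0463), and without GFP-negative library 2 the value was -0.17 (adjusted p = 0.307).

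**Figure D2:**
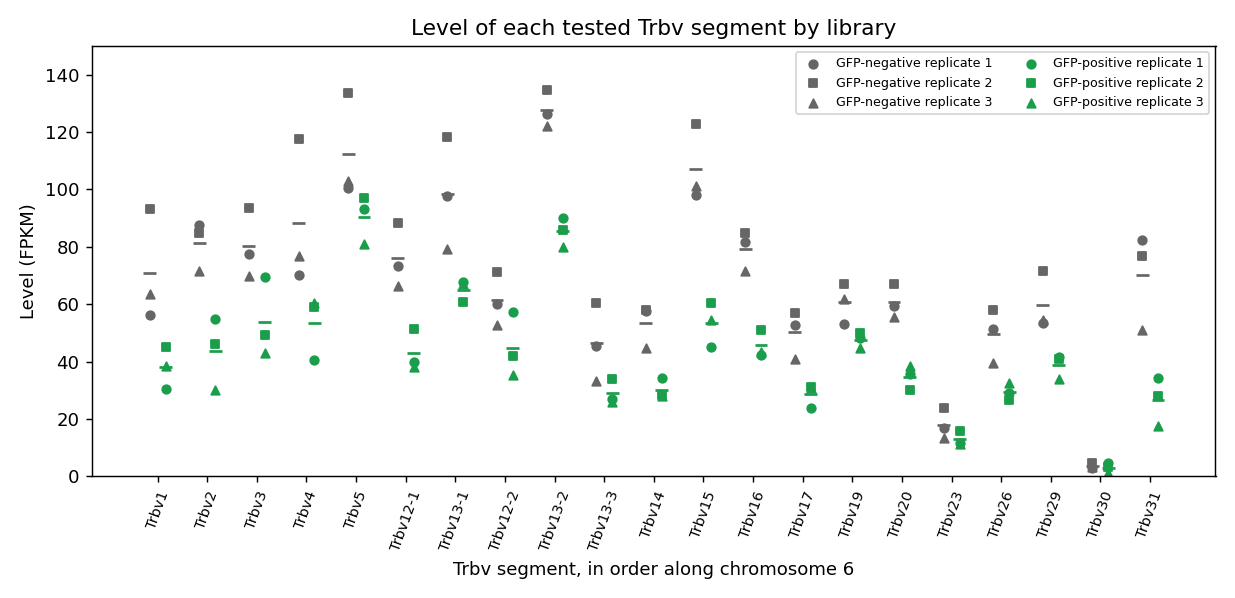
FPKM of the 21 tested Trbv segments in order along chromosome 6, with 1 point per library (grey GFP-negative, green GFP-positive, the marker gives the replicate number) and a short line at each group mean. GFP-negative library 2 is the highest of its group in 19 of 21 segments, and Trbv13-2, Trbv5 and Trbv15 stand highest in GFP-negative cells.

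The middle of the array holds the alternating Trbv12 and Trbv13 segments, duplicated copies of a V beta 5 and a V beta 8 gene. Their coding sequences were the most alike of the 210 pairs compared, with 90.6% identity between Trbv13-2 and Trbv13-3, 88.2% between Trbv12-1 and Trbv12-2 and a median of 53.4% over all pairs, and how the authors' counting shared reads between near copies is uncertain. Trbv13-2 stood at 126, 135 and 122 FPKM against 90.2, 85.9 and 80 FPKM. It had the highest mean level of the 21 segments in GFP-negative cells, the groups did not overlap, and the log2 fold change was -0.58 ± 0.11 (limma, adjusted p = 0.00207).

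The other copies had lower levels. Mean Trbv13-1 went down from 98.4 ± 19.5 to 65.1 ± 3.86 FPKM (SD over 3 libraries; log2 fold change -0.57, limma adjusted p = 0.0114) and Trbv12-1 from 76.0 ± 11.3 to 43.1 ± 7.09 FPKM (-0.81, adjusted p = 0.00217). Trbv12-2, by contrast, stood at 60.1, 71.4 and 52.9 against 57.4, 42.0 and 35.4 FPKM, so that the highest GFP-positive library lay inside the GFP-negative range. Its log2 fold change of -0.47 did not pass (adjusted p = 0.0609) and passed in 6 of 16 alternatives, among them without GFP-positive library 1 (-0.66, adjusted p = 0.0134) and without GFP-negative library 3 (-0.57, adjusted p = 0.0405). It was -0.31 (adjusted p = 0.211) without GFP-positive library 3 and -0.35 (adjusted p = 0.197) without GFP-negative library 2. Trbv13-3 stood at 45.5, 60.3 and 33.3 against 27.0, 33.9 and 25.8 FPKM, with groups that just overlapped, and its call (-0.64, adjusted p = 0.0294) was lost in 8 of 16 alternatives, among them leaving out GFP-negative library 1 or 2 or GFP-positive library 1 or 3 (adjusted p of 0.0781 to 0.0951).

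The 4 segments from Trbv14 to Trbv17 fell, and none of their limma calls was lost under the 16 alternatives. Trbv15, V beta 12, stood at 97.9, 123 and 101 FPKM against 45.2, 60.6 and 54.5 FPKM, well apart, with a log2 fold change of -1.002 ± 0.14 (limma, adjusted p = 0.000617). It and Trbv31 were the 2 members that fell at least 2-fold, a size reached by 12.9% of all genes tested. Trbv15 lay at that limit, with -1.10 to -0.89 over the 16 alternatives. Trbv14 fell from 53.4 ± 7.61 to 30.2 ± 3.51 FPKM (SD over 3 libraries; -0.81), Trbv16 from 79.3 ± 6.82 to 45.7 ± 4.84 FPKM (-0.79) and Trbv17 from 50.2 ± 8.40 to 28.7 ± 4.10 FPKM (-0.79), at adjusted p of 0.00148, 0.000847 and 0.00303 (limma).

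Of the segments nearest to the diversity genes on the upstream side, Trbv20, Trbv26 and Trbv29 fell, by log2 fold changes of -0.80, -0.73 and -0.61 (limma, adjusted p = 0.00109, 0.00387 and 0.00695). Their means went from 60.6 ± 5.77 to 34.8 ± 4.33, from 49.6 ± 9.29 to 29.4 ± 3.04 and from 59.8 ± 10.1 to 38.7 ± 4.27 FPKM (SD, n = 3 each). Trbv19, V beta 6, stood at 53.2, 67.1 and 61.9 FPKM against 48.1, 50.05 and 44.6 FPKM. The groups were separate by a narrow margin, and the log2 fold change of -0.34 (adjusted p = 0.0386) was among the smallest that passed. It was lost in 8 of 16 alternatives, among them leaving out any library but GFP-negative library 1 (adjusted p of 0.0685 to 0.130).

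Other segments had low levels. Trbv23 stood at 18 ± 5.38 and 12.9 ± 2.57 FPKM (SD, n = 3 each; log2 fold change -0.44, limma adjusted p = 0.117; 2 of 16 alternatives passed). Leaving out GFP-negative library 3 gave -0.64 (adjusted p = 0.0221) and leaving out GFP-negative library 2 gave -0.23 (adjusted p = 0.373). Trbv30, the last segment before the diversity genes, stood at 2.95, 4.58 and 3.45 against 4.76, 3.33 and 1.22 FPKM, with overlapping groups (-0.33, adjusted p = 0.488; 0.13 without GFP-positive library 3). Trbv21 lay below the minimum for testing, at 0 to 0.916 FPKM, and Trbv10, a pseudogene between Trbv5 and Trbv12-1, was listed at 0 in every library.

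Across the 20 tested Trbv segments upstream of Trbd1, the Spearman correlation of the log2 fold change was -0.25 with distance from Trbd1 and -0.07 with mean level. These are descriptions over segments that share the same 6 libraries.

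The Trbv repertoire, taken as each segment's share of the summed Trbv FPKM in a library, was spread over many segments in both groups. An even spread over 21 segments would give each 4.76%, and the 5 highest held 36.7% in GFP-negative and 38.8% in GFP-positive cells. Across the 21 segments the Spearman correlation of levels was 0.87 to 0.94 between GFP-negative libraries, 0.77 to 0.90 between GFP-positive libraries and 0.67 to 0.94 between groups, so the libraries kept a similar order.

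In 4 of the 21 segments the shares of the groups did not overlap, 2 higher and 2 lower in GFP-positive cells. With 3 libraries per group some segments can separate without a difference, so this count by itself shows no shift. Shares were described and not tested. Trbv5 held 7.16%, 7.92% and 8.06% of the Trbv sum in GFP-negative and 10.1%, 10.4% and 9.70% in GFP-positive libraries, and went from the second to the first rank by group mean. Trbv19 held 3.79%, 3.98% and 4.85% against 5.22%, 5.35% and 5.33%. Both shares were higher in GFP-positive cells while the FPKM of both segments was lower, since a share is relative to the other segments.

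Trbv31 held 5.86%, 4.56% and 4.002% of the sum in GFP-negative and 3.72%, 2.98% and 2.11% in GFP-positive libraries. Trbv15 held 6.97%, 7.27% and 7.94% against 4.90%, 6.47% and 6.52%. The margin between the groups was narrow in both segments. The Trbv12 and Trbv13 copies together held 28.1% ± 0.5 and 29.8% ± 0.736 (SD, n = 3 each).

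**Figure D3:**
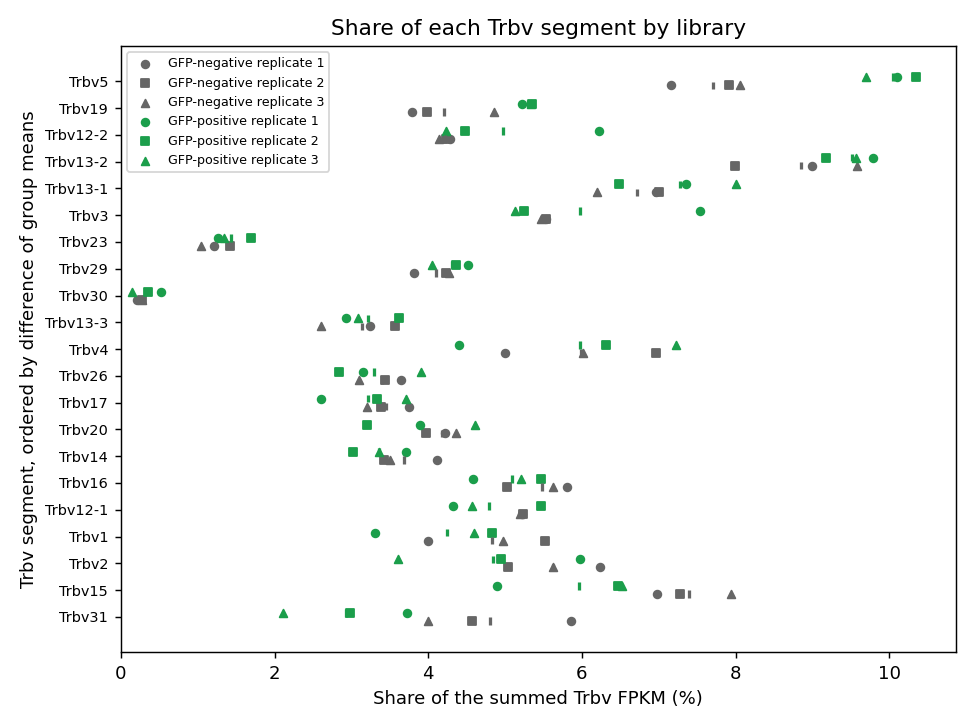
Share of each tested Trbv segment in the summed Trbv FPKM of a library, in percent, ordered by the difference of the group means, with 1 point per library (grey GFP-negative, green GFP-positive) and a short line at each group mean. Trbv5 and Trbv19 at the top and Trbv15 and Trbv31 at the bottom are the segments without overlap for FPKM as deposited.

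The diversity and joining segments could not be read from these files. Both Trbd genes, 12 and 14 bp long, and 13 of the 14 Trbj genes, all 46 to 54 bp long, were listed at 0 in every library, where 0 can be a failed estimate. Trbj2-7 was listed at 7356630 FPKM in GFP-positive library 1 and at 0 in the 5 other libraries. It reached the minimum for testing through that value alone, and its log2 fold change of 7.94 was not called (limma, adjusted p = 0.441). These listings show nothing about the use of a Trbd or Trbj segment.

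Both constant regions fell. Trbc1, the constant region that follows the Trbj1 cluster, stood at 344, 394 and 305 FPKM against 241, 245 and 236 FPKM. The GFP-positive libraries were nearly alike and all lay below the GFP-negative ones, with a log2 fold change of -0.52 ± 0.13 (limma, adjusted p = 0.00752). Trbc2, which follows the Trbj2 cluster, stood at 604, 671 and 554 against 460, 479 and 508 FPKM, also without overlap (-0.33 ± 0.12, adjusted p = 0.0456). The call of Trbc2 was lost in 10 of 16 alternatives, among them leaving out any library but GFP-negative library 3 (adjusted p of 0.0570 to 0.159). Under quantile normalization the log2 fold changes were larger, -1.02 for Trbc1 and -0.99 for Trbc2.

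The 2 constant region genes are near copies. Of 518 coding bases 23 differed, 1 of them among the 375 of the first exon and 15 among the 107 of exon 3. The stretch of the first exon around its differing base and the whole of exon 3 are shown because the genes differ at few bases of the former and more of the latter, and how reads were shared between the copies is uncertain. Capitals mark the bases that differ. The stretches of exon 1 lie on the plus strand at chr6:41538448-41538507 for Trbc1 and chr6:41546960-41547019 for Trbc2, and exon 3 lies at chr6:41539229-41539335 for Trbc1 and chr6:41547772-41547878 for Trbc2 (mm10, GENCODE M21).
Trbc1 exon 1: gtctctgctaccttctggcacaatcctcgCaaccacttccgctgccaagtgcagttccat
Trbc2 exon 1: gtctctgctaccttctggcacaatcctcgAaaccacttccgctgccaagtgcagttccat
Trbc1 exon 3: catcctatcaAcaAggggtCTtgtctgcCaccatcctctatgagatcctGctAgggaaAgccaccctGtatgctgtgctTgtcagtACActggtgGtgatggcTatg
Trbc2 exon 3: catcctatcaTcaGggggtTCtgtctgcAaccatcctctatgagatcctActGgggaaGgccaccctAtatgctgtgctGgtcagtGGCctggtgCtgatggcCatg

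With that uncertainty, the ratio of Trbc1 to Trbc2 was 0.570, 0.588 and 0.551 in GFP-negative and 0.524, 0.511 and 0.465 in GFP-positive libraries. All GFP-positive libraries lay below the GFP-negative ones. After quantile normalization the ratios overlapped, at 0.588, 0.563 and 0.550 against 0.573, 0.550 and 0.542. No test was made of ratios or sums over members.

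The summed level of the variable segments and that of the constant regions were both lower in GFP-positive cells. The Trbv segments summed to 1456 ± 210 FPKM against 898 ± 54.1 FPKM in GFP-positive cells, which is 38.3% lower (SD, n = 3 each). The Trbc genes summed to 957 ± 103 and 723 ± 21.4 FPKM, which is 24.5% lower. The ratio of the Trbv sum to the Trbc sum was 1.48, 1.58 and 1.49 in GFP-negative and 1.31, 1.29 and 1.12 in GFP-positive libraries, without overlap. The direction of this ratio turned with the scaling: after quantile normalization it was 1.15, 1.22 and 1.33 against 1.62, 1.51 and 1.34, higher in GFP-positive libraries. Which of the variable and constant regions differed more is therefore not settled by these values. FPKM are per length, so these sums add levels and not reads.

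**Figure D4:**
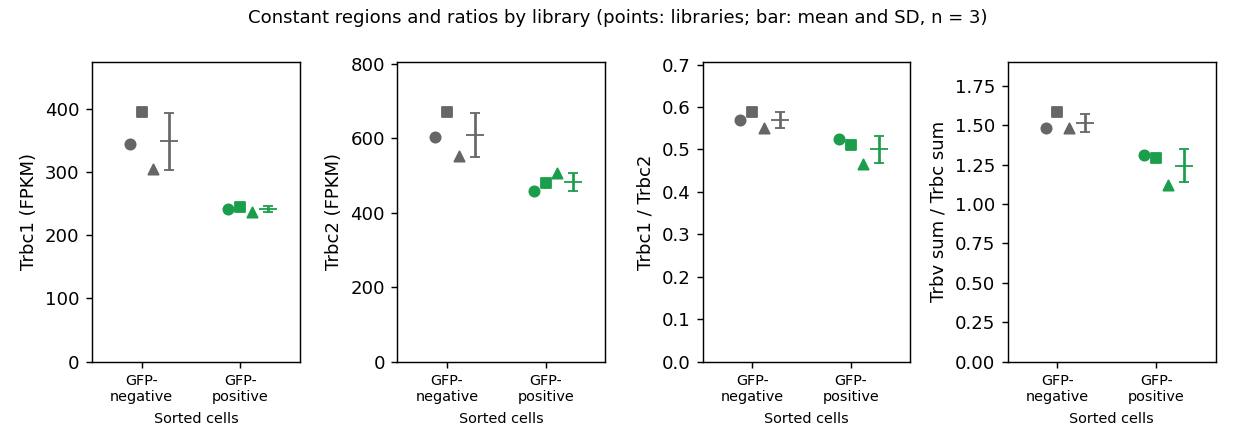
From left to right, FPKM of Trbc1, FPKM of Trbc2, the ratio of Trbc1 to Trbc2 and the ratio of the Trbv sum to the Trbc sum, with 1 point per library and the mean and SD of the 3 libraries beside them, on axes that start at 0. In each panel all GFP-positive points (green) lie below all GFP-negative points (grey) for FPKM as deposited; after quantile normalization the ratio of Trbc1 to Trbc2 overlapped and the ratio of the sums was higher in GFP-positive libraries.

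The authors' deposited table of 6 libraries called 17 Trbv segments and both Trbc genes at a q under 0.05, where 25.9% of the genes it tested were called lower. It called Trbv12-2 (q = 0.0425) and did not call Trbv19 (q = 0.111). The authors' deposited table of 4 libraries, a separate run without library 1 of each group, called 16 of the 41 genes, 15 Trbv segments and Trbc1. Of the genes it tested, 18.6% were called lower, while the 41 include genes listed at 0 in every library. It did not call Trbc2 (q = 0.0759), Trbv17 (q = 0.0593) and Trbv13-3 (q = 0.0518), which the 6-library table called.

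Of 6 genes whose products assemble with the beta chain, 4 fell, 1 rose and 1 did not pass (limma, adjusted p under 0.05), with a median log2 fold change of -0.59. Over all genes tested 29.8% fell and 24.4% rose. Ptcra, the pre-TCR alpha chain, stood at 12.5, 16.6 and 15.4 against 21.3, 20.9 and 18.7 FPKM, with no overlap (0.45, adjusted p = 0.0215; lost in 5 of 16 alternatives). Those were the 4-library table (0.20, adjusted p = 0.256), library 1 left out of both groups (0.30), and GFP-negative library 1 or GFP-positive library 1 or 2 left out (0.33 to 0.42). Cd247, the CD3 zeta chain, fell by 1.25 and Cd3d by 0.75 on the log2 scale. Trac, the constant region of the alpha chain that replaces Ptcra, had a log2 fold change of -3.004 (adjusted p = 0.000943).

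Of 12 genes of V(D)J recombination, 2 rose, 6 fell and 4 did not pass, with a median of -0.27. Of all genes tested 29.8% fell, 24.4% rose and 54.2% passed in either direction. Taken over both directions the count is near the last share for a list of 12. More genes of the list fell than rose, as among all genes tested. Rag1 and Rag2, which cut at the recombination signals, had log2 fold changes of -3.17 and -1.83, and Dclre1c, which opens the hairpin ends, one of -2.05 (limma, adjusted p = 5.75e-06, 9.49e-05 and 3.07e-05). Xrcc5, a subunit of the end-binding Ku complex, and Hmgb2, a DNA-bending protein, rose by 1.13 and 1.23.

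Values for other antigen receptor loci come from the same fit, and the differences between loci were not tested. Of 58 tested Trav segments of the alpha locus 53 fell and 1 rose, with a median log2 fold change of -2.65. Of 6 tested gamma locus genes 0 fell and 5 rose, with a median of 2.35. Among all genes tested 29.8% fell and 24.4% rose, with a median of -0.08.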

How the data were processed

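Ribosomal RNA was removed from the RNA of the 6 libraries, per the labels' protocols. TopHat2, Cuffdiff and mm10 were used, per the submitters' processing notes, while versions, annotation and strand setting were not given in the sources used here. Cuffdiff-style tables of FPKM were deposited by the authors for a run over 6 libraries and another over 4, and each deposited table also has a p-value and a q-value for every gene.

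Genes with a mean of at least 1 FPKM, without the authors' status HIDATA (24 genes), were compared with limma 3.58.1 in R 4.3.3 (trend and robust) on log2(FPKM + 0.5), a scale that understates changes of low genes. P-values were adjusted over all 11465 genes, threshold 0.05. FPKM are not counts, so no count test was used. Absolute depth is unknown and no counting intervals are given. Symbols were matched to GENCODE M21 by identifier (97.3% of genes) and, for Trbv4, by symbol; older V beta numbers are RefSeq synonyms (GRCm38.p6). Coding sequences were aligned with Biopython 1.88. On data simulated for this comparison with 11456 genes, 16% of 1.5-fold, 45.6% of 2-fold and 89.2% of 4-fold changes were recovered, and 4.04% of calls were false. Few genes changed in the simulation, with independent normal noise per library, while 54.2% of all genes tested passed in the real libraries. These rates therefore do not carry over to the real libraries.

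Other settings tried were a pseudocount of 0.1 or 1, a minimum mean of 5 FPKM or none, quantile normalization, upper quartile scaling, plain limma (neither trend nor robust), the replicate block, each library left out, the 4-library table and, added after seeing the data, the 6-library table without library 1 of both groups and quantile normalization of the ratios and shares. The members and lists were chosen with earlier results of these data known. Named were all Trbc and Trbd genes, all Trbv and Trbj genes with a mean of at least 1 FPKM, and from each other list up to 3 genes per direction past the threshold. Named beside this rule, after their values were seen, were Trbv10 and Trbv21, Trbj1-1 and Trbj2-1 for their sequences, marker and receptor genes, and the genes whose sign turned under an alternative. Another deposited table was not used here.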

Additional observations from a re-analysis of the deposited data

How the results depend on the processing

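Over the 16 alternatives the number of TCR beta genes that fell was 14 to 21 against 19, and 0 rose in any. The share of all genes tested that fell moved too, from 17.9% with no filter to 31.4% with a minimum mean of 5 FPKM, against 29.8%. Leaving out 1 library gave 14 to 20, quantile normalization 20, upper quartile scaling 16, no filter 14, limma without trend and robust 14, the table of 4 libraries gave 18 and the 6-library table without library 1 of both groups 17. Of the 19 genes, 13 were called under all 16 alternatives: Trbv1, Trbv2, Trbv12-1, Trbv13-2, Trbv14, Trbv15, Trbv16, Trbv17, Trbv20, Trbv26, Trbv29, Trbv31 and Trbc1. Trbv13-1 missed the threshold without library 1 of both groups (adjusted p = 0.0510, limma). With the replicate block 21 of 24 genes fell (30.2%), Trbv12-2 and Trbv23 being added. The numbers were not shown to pair the libraries, since same-numbered libraries correlated in their deviations from the group means at 0.094, -0.0209 and 0.0610.

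Signs turned for genes that had not passed and for 1 ratio. The group difference in the ratio of the Trbv sum to the Trbc sum was -0.27 as deposited and 0.26 after quantile normalization, and that in the ratio of Trbc1 to Trbc2 was -0.07 and -0.01. The shares of Trbv5, Trbv15, Trbv19 and Trbv31 did not overlap after it either. Those of Trbv12-2, which overlapped as deposited, then did not, at 4.21%, 4.16% and 4.11% against 6.16%, 4.49% and 4.29%. Trbv30 ranged from -0.68 to 0.13 with 1 library left out, and Prkdc from -0.0375 to 0.14. Xrcc6 was 0.0081 with upper quartile scaling, and Nhej1 was 0.14 and Hmgb1 -0.44 with quantile normalization, where Hmgb1 passed (adjusted p = 0.00493); the cause was not tested. The depth of the libraries is unknown, and the 3 libraries per group limit what can be called.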

Other observations

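The genes that lie among and beside the Trbv segments were mostly listed at 0, which in these files can be a failed estimate. Of the 6 protein-coding genes of the table between Trbv1 and Trbv2, 5 were listed at 0 in every library. Of the 8 between Trbv30 and Trbd1, where trypsinogen genes of the pancreas lie, 5 were listed at 0, and the highest value was 0.892 FPKM, for Prss2. Prss2 stood at 0.163, 0.892 and 0.314 FPKM in GFP-negative libraries and was listed at 0 in the GFP-positive ones.

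On the far side of Trbv31 lies Ephb6, a receptor of the Eph family known from thymocytes, and it was the sole gene of the 18 listed neighbours found in the table to reach the minimum for testing. It stood at 43.6, 34.4 and 31.03 FPKM in GFP-negative and 10.9, 9.59 and 11.9 FPKM in GFP-positive libraries, far apart. The log2 fold change was -1.69 ± 0.15 (limma, adjusted p = 6.33e-05). Trpv6, a calcium channel gene beyond it and too low to be tested, stood at 0.920, 1.03 and 1.29 against 0.114, 0.165 and 0.222 FPKM.

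Prss2 and Trpv6 were chosen for naming after their values were seen.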
